A study of Gallus gallus with 12 samples.

Results

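The genes of the proteasome were followed in the chicken pineal gland, in birds given a light pulse and in birds kept in the dark. A gene was taken as a member when its symbol in the array's annotation began with PSMA, PSMB, PSMC, PSMD, PSME or PSMG and its probe set named no other gene. This gave 36 genes with 57 probe sets, out of 13009 genes named by single-symbol probe sets and 38439 probe sets on the array. Where a gene had several probe sets, the one with the highest mean over the 12 arrays was used. A filter on low signal, applied to the mean over all arrays, left 35 of the 36 genes for testing. The filter removed PSMB5. One of the 35, PSMC3IP, carries the prefix through its name only: it encodes a factor of meiotic recombination that binds a proteasome ATPase, so 34 tested genes encode parts or helpers of the proteasome. PSMD4, a ubiquitin receptor of the proteasome, shares all 4 of its probe sets with another gene and was not analysed here.

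The proteasome destroys proteins that carry ubiquitin chains. Its core, the 20S particle, is a barrel of alpha rings around beta rings that hold the cutting sites, and the 19S particle that caps it binds the chains, removes them, and unfolds the substrate with a ring of ATPases. The pineal gland of birds contains its own circadian clock and its own photoreceptors, and clock proteins are among the substrates that the proteasome removes. Alternative caps and dedicated chaperones that build the particle complete the group.

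The samples were pineal glands of male chicks aged 8 days that had lived for 7 days in cycles of 12 h light and 12 h dark and then in constant darkness for a day. There were 6 groups of 2 arrays: light at circadian time (CT) 6, dark at CT6, light at CT14, dark at CT14, light at CT22 and dark at CT22. Light groups received 1 h of light from the named time, which falls in the subjective day (CT6), the early subjective night (CT14) or the late subjective night (CT22). Dark groups had no pulse, and every group shared the same entrainment and dark day. Glands were taken when the pulse ended, so each light value is an early one. Each array held RNA pooled from 6 glands, and the labels call the 2 arrays of a group biological samples. No strain and no genetic change is named.

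All values below are log2 intensities after quantile normalization, and differences are log2 changes with the standard error of a fit over all 12 arrays. A change passed the test when limma's p was under 0.05 after Benjamini-Hochberg adjustment, which took in all 23063 probe sets tested. Arrays of a group correlated with each other at 0.931 to 0.942 over all probe sets. The pineal markers were present, with ASMT, the last enzyme of melatonin synthesis, at a mean of 12.75 and TPH1, the first, at 13.19. Markers of other cells were present too. The brightest of their lists were TTR (choroid plexus) at 12.94, HBA1 (red cells) at 12.49, DCN (fibroblasts) at 12.04 and CD74 (macrophages) at 11.73. As a sign of RNA quality, the 3′ to 5′ signal ratio of actin was 3.28 and 3.09 in light at CT14, against 4.67 and 3.95 in dark. It lay between 3.62 and 4.23 on the 8 other arrays, a range that holds the second CT14 dark array too. In such bulk samples fewer cells of a type and less RNA per cell cannot be told apart. A level is not compared between genes here, because probe sets differ in brightness for reasons of their own.

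The 34 genes kept narrow ranges over the 6 groups. The group means of a typical proteasome gene spanned 0.22 from the lowest to the highest group (median over the 34 genes), against 0.51 for all probe sets tested and 0.34 for those with a mean above 7. Arrays of the same group differed from each other by a median standard deviation of 0.078 in the 34 genes, against 0.20 in all probe sets tested and 0.11 in those with a mean above 7. The smallest span was that of PSMA5, an alpha subunit of the barrel, at 0.077. The widest were in chaperones that assemble the 20S particle, with 0.65 for PSMG3, 0.63 for PSMG4 and 0.52 for PSMG2. The median span over PSMG1 to PSMG4 was 0.57, but PSMG1 itself spanned only 0.21. The median standard deviation of these chaperones within groups was 0.16, with 0.41 for PSMG3, 0.19 for PSMG4, 0.12 for PSMG2 and 0.098 for PSMG1. PSMD2, a scaffold subunit of the 19S base, had 0.20 and PSMD5 0.18, whereas the median was 0.054 over the 7 alpha subunits and 0.057 over the 5 beta subunits.

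**Figure D1:**
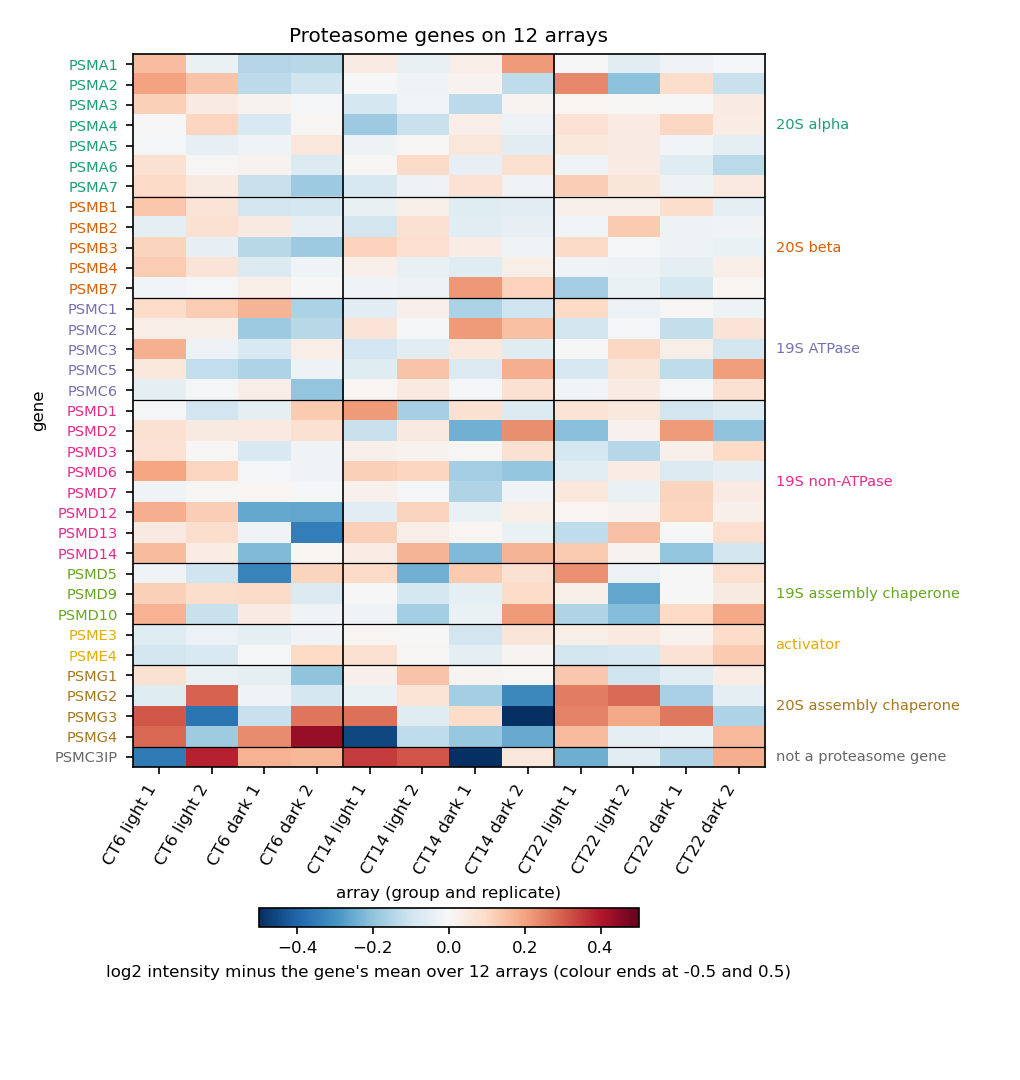
Colour map of the 35 tested genes (rows, ordered by role) on the 12 arrays (columns, light left of dark at each time). Colour gives the log2 intensity minus the gene's own mean over the 12 arrays, and ends at -0.5 and 0.5. Most cells are pale. The deepest colours lie in PSMG2, PSMG3, PSMG4 and PSMC3IP, and within a group the 2 arrays of these genes often differ.

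PSMB5, which carries the chymotrypsin-like cutting site, could not be followed. Its brighter probe set read 0.66 and 4.43 in light at CT6 and 5.21 and 2.43 in dark, 2.54 and 4.43 in light at CT14 and 0.61 and 1.96 in dark, and 0.65 and 2.84 in light at CT22 and 3.90 and 3.97 in dark. Apart from dark at CT22, arrays of the same group did not repeat. Its mean over the 12 arrays was 2.80, under the limit of 3.73 set for testing, and that of its other probe set was 2.08.

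At CT6, in the subjective day, 0 of the 35 genes passed the test for light against dark, where 0.221% of all probe sets passed. The values nonetheless lay mostly on 1 side: 25 of 35 were higher in light (71.4%, against 50.2% of all probe sets), and the median change was 0.085, against 0.0011 over all. At an unadjusted p under 0.05, 7 genes were higher in light and 0 lower, which is 20% of the members, while 9.94% of all probe sets and 15.3% of those with a mean above 7 reached this in either direction. In 14 genes both light arrays lay above both dark arrays (40%, against 20.9% of all probe sets), and in 2 both lay below (20% of all probe sets did).

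The gene furthest from 0 at CT6 was PSMD12, which encodes a scaffold subunit of the 19S lid. It read 9.01 and 8.95 in light, against 8.57 and 8.57 in dark. The 2 dark arrays were the lowest of all 12, and the groups did not overlap. The difference was 0.41 ± 0.08 (SE, n = 2 a group), a 1.33-fold higher level in light, with a 95% interval of 0.23 to 0.59 and an adjusted p of 0.0678 (limma). The CT6 dark arrays that set this difference also enter the dark comparisons: against them, PSMD12 was higher by 0.26 ± 0.08 in dark at CT14 and by 0.32 ± 0.08 in dark at CT22 (adjusted p 0.123 and 0.102).

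Within the 20S core at CT6, 6 of 7 alpha subunits and 4 of 5 beta subunits were higher in light, with medians of 0.088 and 0.14. PSMA7, an outer-ring subunit, read 9.85 and 9.80 in light, against 9.64 and 9.57 in dark, a difference of 0.22 ± 0.07 (adjusted p 0.294). PSMB1, a beta subunit without a cutting site, read 10.21 and 10.13 in light, against 9.98 and 9.98 in dark, a difference of 0.19 ± 0.07 (adjusted p 0.349). In both genes every light array lay above every dark one, though by less than the test asked for. The same held for PSMA2, with 8.74 and 8.68 in light and 8.41 and 8.44 in dark, and for PSMA1 and PSMB3, whose differences were 0.20 and 0.19. PSMB7, the subunit with the trypsin-like site, went the other way by a trace, at 9.64 and 9.65 in light, against 9.69 and 9.65 in dark.

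In the 19S cap at CT6, all 5 ATPases were higher in light, by 0.050 to 0.19, and 5 of the 8 other subunits were. PSMD13, a lid subunit, had a difference of 0.25 ± 0.17, with an interval of -0.11 to 0.61, and a difference of 0.087 without the second dark array. Of the remaining roles, the activators PSME3 and PSME4 were lower by 0.013 and 0.13, and the 20S chaperones were divided, PSMG4 differing by -0.28 ± 0.16, or by -0.048 without the second light array. Among all members the first of the 2 CT6 light arrays stood highest, with 23 of 34 genes above their own mean, while the second had 19. The 2 CT6 dark arrays had the lowest counts of any group, 11 and 10 of 34. The genes' median deviation from their own means was 0.075 and 0.006 on the CT6 light arrays. On the CT6 dark arrays it was -0.044 and -0.021. Over all probe sets it was 0.0098 to 0.012 on these arrays. The median change at CT6 was 0.075 without the first light array and 0.12 without the second. No cell type marker passed the test at CT6. Before adjustment (limma p under 0.05, reached by 9.94% of all probe sets), 4 of 8 macrophage and microglia markers were higher in light, with a median of 0.31. Their summed signals were 5160 to 5590 in light and 5190 to 5470 in dark. CD74, the brightest of the 8, weighs most in these sums, with means of 11.875 in light and 11.97 in dark. Its change was the lowest of the 8, at -0.095, and the highest was 0.42. At the same unadjusted level 1 of 5 choroid plexus and ependyma, 1 of 5 glial and 1 of 5 endothelium markers were higher. Lower were 2 of 5 fibroblast and meninges markers and 1 of 7 pineal markers. The part of these cells in the shift was not tested.

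The CT6 shift depended on how arrays were scaled. The share higher in light was 25 of 35 with quantile normalization, 30 of 35 with the deposited scale and 32 of 35 with each array centred on its own median. Set against the median of all probe sets, the median change of the genes was 0.084 with quantile normalization and 0.15 with either of the others. With arrays centred on the median, 4 genes passed the test at CT6, namely PSMA7, PSMB1, PSMC2 and PSMD12.

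**Figure D2:**
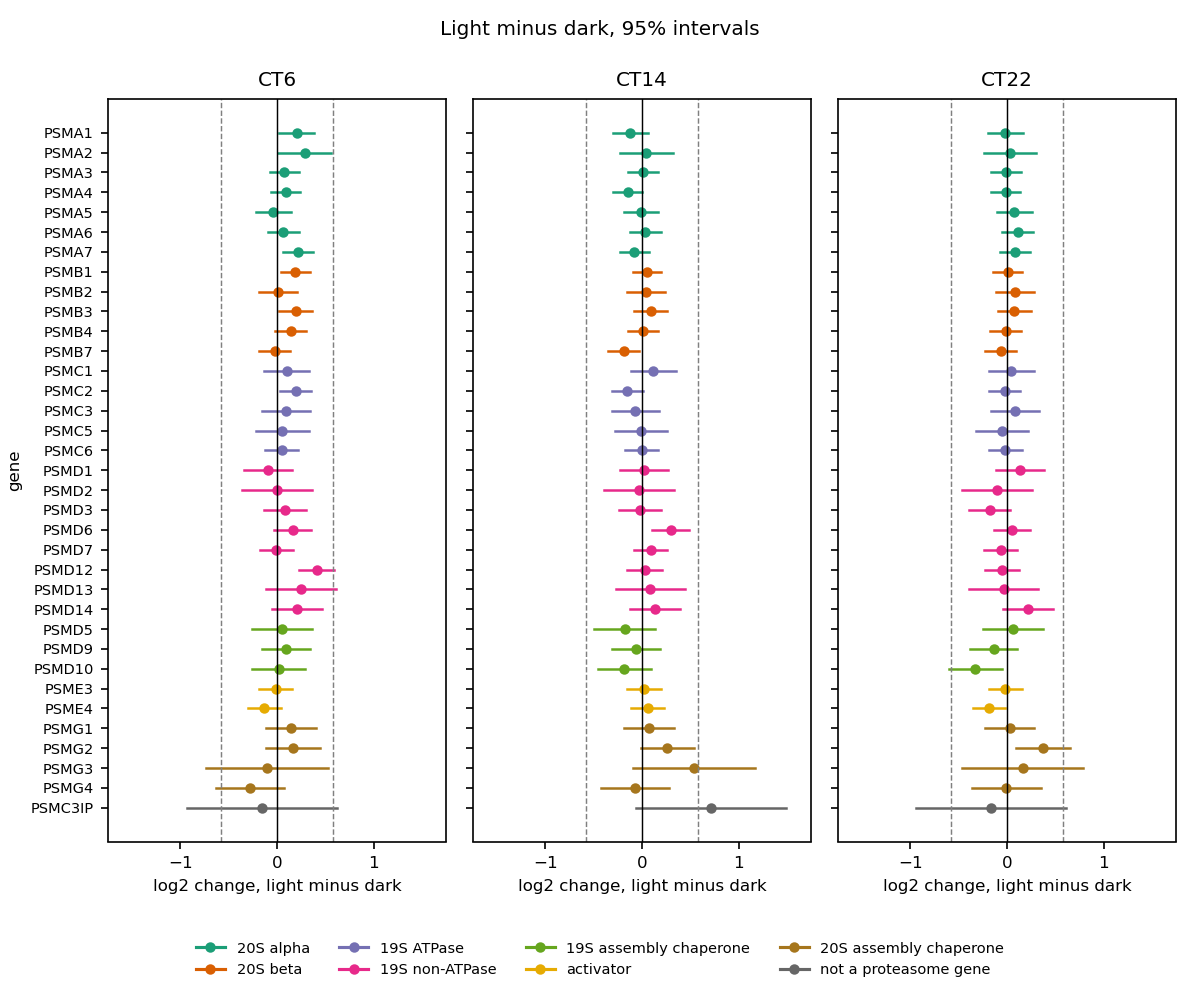
Log2 change, light minus dark, of each tested gene (rows) at CT6, CT14 and CT22 (panels), with 95% intervals from the fit, not adjusted for the number of genes. Dashed lines mark a 1.5-fold change in either direction. At CT6 most points lie right of 0, at CT14 and CT22 they lie on both sides, and few intervals reach a dashed line.

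At CT14, in the early subjective night, 0 of 35 genes passed the test, with 1.67% of all probe sets passing. The light values were higher in 20 of the 35 genes, and the median change was 0.018, against 0.0016 over all. On the deposited scale 29 were higher, but there the median of all probe sets was itself higher by 0.125, with the genes 0.0087 above it. Before adjustment 1 gene was higher and 1 lower (5.71%, against 14% of all probe sets). Both light arrays lay above both dark arrays in 9 genes and below them in 4, together 37.1%, against 43.6% of all probe sets.

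The higher of these was PSMD6, a lid subunit, which read 8.26 and 8.25 in light, against 7.97 and 7.95 in dark. This is a difference of 0.30 ± 0.09 with an adjusted p of 0.128, and the dark arrays at CT14 were the lowest of the 12. PSMG2, a chaperone of alpha-ring assembly, was higher by 0.26 ± 0.13 (adjusted p 0.389). PSMG3, a second chaperone of that step, showed the largest difference of the 34 genes, 0.54 ± 0.29, but only 0.014 without the second dark array. Its dark arrays read 7.43 and 6.38, so that it overlapped with light at 7.61 and 7.28. The lower one was PSMB7, at 9.64 and 9.63 in light, against 9.87 and 9.77 in dark, a difference of -0.19 ± 0.08 (adjusted p 0.264). PSMD10 and PSMD5, chaperones that help build the 19S base, differed by -0.18 ± 0.13 and -0.18 ± 0.15, with light and dark arrays interleaved. PSMC3IP, which is no proteasome gene, had 4.84 and 4.80 in light, against 3.66 and 4.54 in dark, a difference of 0.72 ± 0.36 near the filter.

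At CT22, in the late subjective night, 0 of 35 genes passed the test although 3.64% of all probe sets did. The genes were divided, with 16 higher in light, and the median change was -0.011, against -0.008 over all. With arrays centred on the median 23 were higher, and on the deposited scale 7, where the median of all probe sets was -0.113 and the genes lay 0.048 above it. Unadjusted, 1 gene was higher and 2 were lower, 8.57%, against 16.9% of all probe sets. In 8 genes both light arrays lay above both dark ones and in 4 they lay below, together 34.3%, against 47.9% of all.

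PSMG2 had the highest difference at CT22. It read 7.63 and 7.66 in light, against 7.22 and 7.33 in dark, which is 0.37 ± 0.13 (adjusted p 0.146). PSMD14, the enzyme that cuts ubiquitin chains off the substrate, read 9.40 and 9.29 in light, against 9.07 and 9.18 in dark, a difference of 0.22 ± 0.12. In both genes the light arrays were above the dark arrays, but neither gene passed the test after adjustment over all probe sets. Before adjustment, the limma p of PSMG2 was under 0.05 and that of PSMD14 was not. PSMG3 followed with 0.16 ± 0.29 and overlapping arrays. On the lower side stood PSMD10, at 7.35 and 7.28 in light, against 7.60 and 7.68 in dark, with a difference of -0.33 ± 0.13 (adjusted p 0.201). PSME4, the large activator PA200, differed by -0.19 ± 0.08 (adjusted p 0.233), and its other 2 probe sets gave 0.32 and -0.094. PSMD3, a lid subunit, differed by -0.18 ± 0.10 (adjusted p 0.398).

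**Figure D3:**
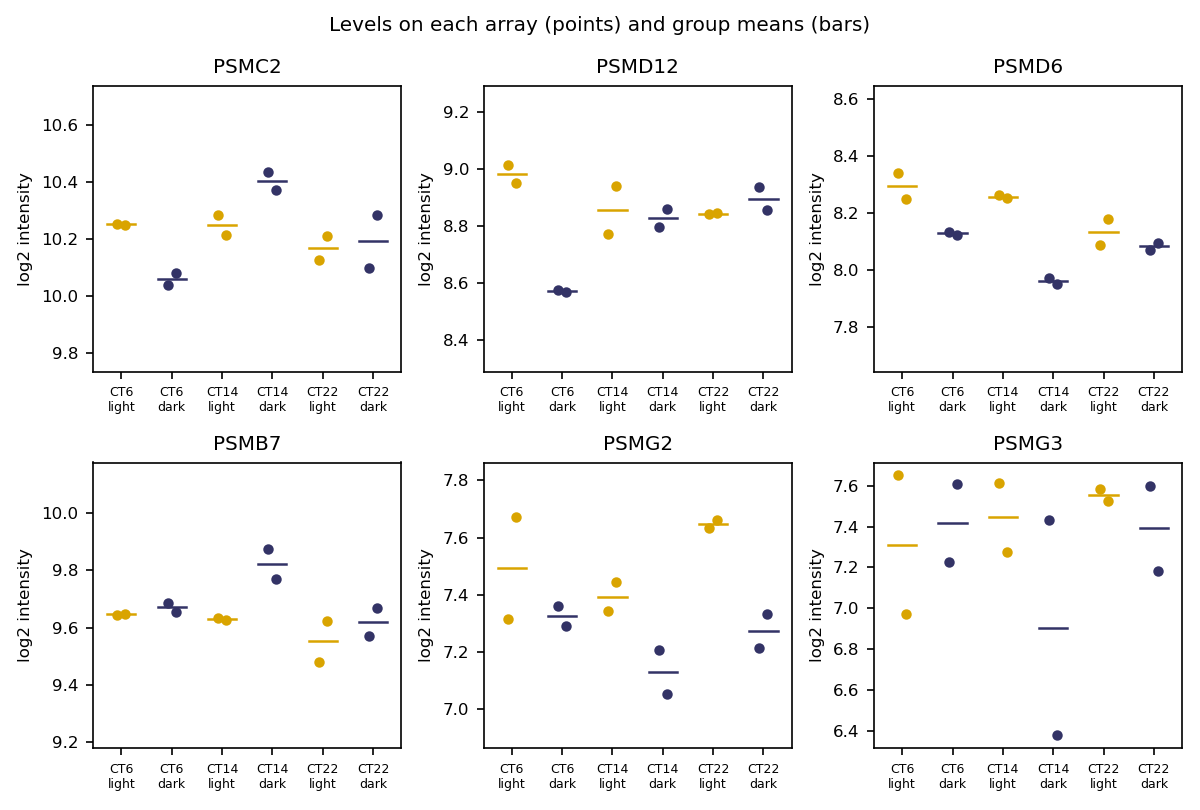
Log2 intensity of selected proteasome genes on each array (points) with group means (bars), light left of dark at each time. Light arrays of PSMD12 at CT6 lie above both dark arrays, and PSMC2 is highest in the CT14 dark arrays.

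Averaged over the 3 times, 0 of 35 genes passed, against 3% of all probe sets, and 24 were higher in light (28 on the deposited scale and 29 with arrays centred). PSMG2 came nearest, at 0.27 ± 0.07 (adjusted p 0.0781), with a positive difference at each time. PSMD6 followed at 0.17 ± 0.05 (adjusted p 0.102) and PSMD14 at 0.18 ± 0.07 (adjusted p 0.205). Unadjusted, 5 genes were higher and 2 lower (20%, against 15.7% of all probe sets). The lowest were PSMD10 at -0.16 ± 0.07, PSMG4 at -0.12 ± 0.09 and PSMB7 at -0.094 ± 0.043.

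For the chosen probe sets and with quantile normalization, the intervals limit how large a response could have been missed. For the average over times, the 95% interval lay inside a 1.5-fold change in either direction (0.585 on the log2 scale) for all 34 proteasome genes. At CT6 this held for 30 of the 34 genes, the others being PSMD12, PSMD13, PSMG3 and PSMG4. At CT14 it held for 33, without PSMG3, and at CT22 for 31, without PSMD10, PSMG2 and PSMG3. Among all probe sets the shares were 44.4% at CT6, 42% at CT14 and 40.4% at CT22, and among those with a mean above 7 they were 87.8%, 84.1% and 80.3%. Some further probe sets of the same genes had intervals that went past this limit. At CT14 that of the dimmer PSMB7 set was 0.21 to 0.84, and at CT6 that of the second PSMC3 set was -0.27 to 1.90. Intervals with other scalings are not given here. The intervals are per gene and rest on 2 arrays a group, and values refer to mRNA only.

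Whether light acted differently at different times was tested as the difference of the light effects. Between CT14 and CT6, 0 of 35 genes passed, against 0.113% of all probe sets. The lowest differences were those of PSMD12 at -0.38 ± 0.12 (adjusted p 0.276) and PSMC2 at -0.34 ± 0.10 (adjusted p 0.263), and unadjusted 5 genes were lower and 0 higher, where 10.4% of all probe sets lay under 0.05. Between CT22 and CT14, 0 passed, against 2.26%, and 1 gene, PSME4, was lower at the unadjusted level, against 15.5% of all probe sets. Between CT22 and CT6, 0 passed, against 0.247%, and PSMD12 at -0.46 ± 0.12 (adjusted p 0.15) was the 1 gene at the unadjusted level, against 11%. The larger PSMD12 difference at CT6 was thus not shown to differ from those at the later times.

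Among the dark groups, which show time of day without light, 1 of the 35 genes passed when CT14 was set against CT6, where 3.46% of all probe sets passed, 1.34% as higher at CT14. It was PSMC2, an ATPase of the 19S base. PSMC2 read 10.43 and 10.37 in dark at CT14, against 10.04 and 10.08 in dark at CT6. The CT14 dark arrays were the highest of the 12 and the CT6 dark arrays the lowest. PSMC2 rose by 0.34 ± 0.07, or 1.27-fold, with an interval of 0.18 to 0.50 and an adjusted p of 0.0213. In dark at CT22 it read 10.10 and 10.28, lower than at CT14 by 0.21 ± 0.07 (adjusted p 0.119).

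In light the same gene was flatter, at 10.25 and 10.25 at CT6, 10.29 and 10.21 at CT14, and 10.13 and 10.21 at CT22. The call for PSMC2 was lost when any 1 of the 4 dark arrays at CT6 and CT14 was left out (adjusted p 0.051 to 0.143, change 0.31 to 0.37) and with the actin ratio as a covariate (change 0.31, adjusted p 0.0612). Actin ratios in the dark stood at 4.67 and 3.95 for CT14 and at 3.89 and 4.17 for CT6. Summed signals of the 7 pineal markers were 24300 to 24800 in dark at CT14 and 26300 to 26800 in dark at CT6, and 3 of the 7 fell while 1 rose. Of 8 macrophage and microglia markers 1 rose, of 5 glial markers 1 fell and of 5 fibroblast and meninges markers 2 fell, whereas 0 of the choroid plexus, red cell, lymphocyte, neuron and endothelium markers passed. LCK, a T cell marker, was near 0 with a mean of 0.16, but CD3D, another, had a mean of 7.46. CD3D read 6.50 and 8.66 on the 2 CT14 dark arrays. Summed signals of the 8 lymphocyte markers were 284 to 1040 in dark at CT14 and 647 to 784 in dark at CT6. The part of these cells in the result was not tested.

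Other subunits did not follow PSMC2 past the threshold. PSMA1, an alpha subunit, read 9.66 and 9.84 in dark at CT14, against 9.48 and 9.49 at CT6, a difference of 0.27 ± 0.08 (adjusted p 0.108). The remaining ATPases differed between CT14 and CT6 by -0.135 (PSMC1), 0.016 (PSMC3), 0.14 (PSMC5) and 0.12 (PSMC6). On the lower side PSMG4, a chaperone of alpha-ring assembly, read 7.13 and 7.07 in dark at CT14, against 7.56 and 7.76 at CT6. Its difference was -0.56 ± 0.16 (adjusted p 0.0864), and its other 2 probe sets gave 0.19 and -0.50. PSMC3IP differed by -0.55 ± 0.36, or by -0.11 without the first CT14 dark array. PSMG3 differed by -0.51 ± 0.29 with overlapping arrays, or by 0.013 without the second CT14 dark array. Over the 35 genes, 22 were higher at CT14 (28 with arrays centred on the median), with a median of 0.032. Unadjusted, 4 lay under 0.05 as higher and 1 as lower (14.3%, against 17.1% of all probe sets).

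**Figure D4:**
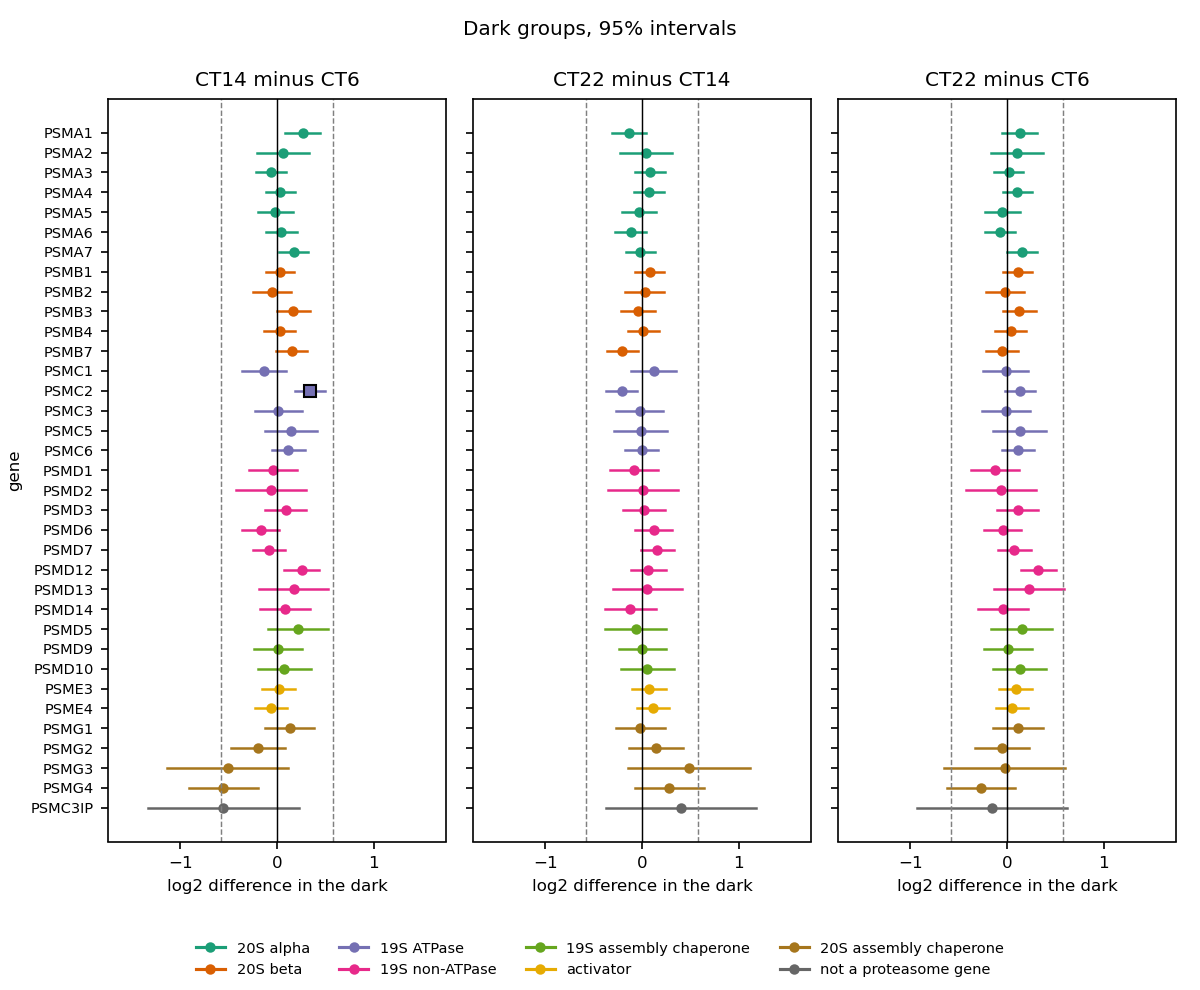
Log2 difference between dark groups for each tested gene (rows), with 95% intervals from the fit, for CT14 minus CT6, CT22 minus CT14 and CT22 minus CT6 (panels). The square marks PSMC2, the gene that passed the test, at 0.34 for CT14 minus CT6. Dashed lines mark a 1.5-fold change in either direction, and the panels share dark arrays.

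For dark CT22 against CT14, 0 of 35 genes passed, against 6.54% of all probe sets. Unadjusted, 2 genes were lower, PSMC2 and PSMB7, and 0 higher (5.71%, against 19.6% of all). PSMB7 read 9.57 and 9.67 at CT22, against 9.87 and 9.77 at CT14, a difference of -0.20 ± 0.08 (adjusted p 0.142). Its second and dimmer probe set went the opposite way and passed the test. That set read 6.74 and 6.55 in dark at CT22, against 6.01 and 6.18 at CT14, a difference of 0.55 ± 0.15 (adjusted p 0.0378). The direction for PSMB7 is therefore uncertain. At CT14 too the dimmer set was opposite for light against dark, at 0.53 ± 0.15 (adjusted p 0.1). For dark CT22 against CT6, 0 of 35 passed, against 1.11%, with 2 genes higher at the unadjusted level, PSMD12 and PSMA7 (5.71%, against 11.4%). The deposited scale put all 35 genes higher at CT22 in both of these dark comparisons, against 21 with quantile normalization, but on that scale the median of all probe sets was itself higher by 0.37 against CT14 and by 0.28 against CT6.

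Further probe sets were tested for 11 of the genes, 13 in all. Their sign matched that of the chosen set in 9 of 13 at CT6, 8 of 13 at CT14 and 7 of 13 at CT22 for light against dark. Between dark groups it matched in 6 of 13 for CT14 against CT6, 5 of 13 for CT22 against CT14 and 6 of 13 for CT22 against CT6. The one that passed the test in any comparison was that of PSMB7. Several of these sets, and the probe set of PSMC2, are of the type that can match more than 1 transcript.

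The genes moved together little. Over the 12 arrays, which share groups and scaling, the mean correlation between pairs of the 34 genes was 0.061. It was 0.11 among the 25 subunits of the core and the cap, against 0 over all probe sets tested and 0.001 over those with a mean above 7. With group means removed it was 0.025 over the 34 genes. PSMB1 had the highest correlation with the mean of the others, 0.80, and PSMB7 the lowest, -0.50. These are descriptions of 12 arrays and were not tested.

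Genes that act on or around the proteasome were read from 3 lists. Of 13 tested partners of the particle, among them POMP, USP14, UCHL5 and ADRM1, 0 passed for light against dark at CT6, CT14 or CT22, where 0.221%, 1.67% and 3.64% of all probe sets did. Unadjusted, 4, 1 and 6 of the 13 lay under 0.05, where 9.94%, 14% and 16.9% of all probe sets did. In the dark, ECPAS, a scaffold protein of the proteasome, fell at CT14 against CT6, reading 8.33 and 8.24 against 8.80 and 8.65, by 0.44 ± 0.10 on the log2 scale (adjusted p 0.0252). Its 3 other probe sets gave 0.034, -0.048 and -0.32 there, and the call was lost in 9 of 24 alternatives. ZFAND5, a zinc-finger protein that activates the particle, read 10.31 and 10.36 in dark at CT22, against 9.88 and 9.93 at CT14 and 9.96 and 9.99 at CT6. It rose by 0.43 ± 0.07 against CT14 (adjusted p 0.00328) and by 0.36 ± 0.07 against CT6 (adjusted p 0.0334), though the second did not pass in 10 of 24 alternatives. Leaving out any single dark array of CT6 or CT22 was enough for that. Its other 2 probe sets also rose against CT14, by 0.35 and 0.98. For light against dark at CT22, 1 of these further sets of ZFAND5 passed, with a fall of 0.84 ± 0.19 (adjusted p 0.029), and the other gave -0.21.

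Of 11 tested regulators of proteasome genes, 1 rose and 1 fell at CT14, where 1.67% of all probe sets passed. NFE2L1 encodes the factor that in mammals raises proteasome genes when the particle is inhibited. It read 9.95 and 9.89 in light at CT14, against 9.52 and 9.65 in dark, and rose by 0.33 ± 0.08 (adjusted p 0.0431). Its other 2 probe sets gave -0.47 and -0.15, and with the probe sets averaged the change was -0.094. NFE2L2, a related factor of oxidative stress, read 10.33 and 10.29 in light at CT14, against 10.77 and 10.65 in dark, and fell by 0.40 ± 0.08 (adjusted p 0.0144). Its other probe set gave -0.36 (adjusted p 0.158), and a fit that included the actin ratio gave -0.23 (adjusted p 0.86). The call for NFE2L1 was lost in 18 of 24 alternatives and that for NFE2L2 in 7. Both comparisons use the CT14 dark arrays, the group in which the mean of NFE2L1 was lowest and that of NFE2L2 highest. In light at CT14, 1 of 7 pineal and 1 of 5 fibroblast and meninges markers rose, and 0 markers of any list fell. Summed signals of the pineal markers were 26200 to 27300 in light and 24300 to 24800 in dark. Those of the 3 red cell markers were 6000 to 6460 in light and 8200 to 8840 in dark. The part of these cells in the calls for light at CT14 was not tested. In dark alone, NFE2L2 rose by 0.42 ± 0.08 at CT14 against CT6 and fell by 0.68 ± 0.08 at CT22 against CT14 (adjusted p 0.00781 and 0.000123). These calls were lost in 5 and 0 of 24 alternatives. The other NFE2L2 probe set gave 0.28, which did not pass, and -0.54, which did (adjusted p 0.22 and 0.0124). NFE2L1 in dark fell by 0.33 ± 0.08 and rose by 0.31 ± 0.08 in the same 2 comparisons (adjusted p 0.0276 and 0.0248), which share the CT14 dark arrays with the light comparison. Of its 2 other probe sets, 1 gave 0.45 and -0.31 there and the other -0.17 and 0.25, and neither passed. The dark calls for NFE2L1 were lost in 10 and 8 of 24 alternatives, with changes as small as -0.016 and 0.084.

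Among the other regulators, MAFF, a small partner protein of these factors, read 5.70 and 5.34 in light at CT22, against 6.58 and 6.36 in dark. It fell by 0.96 ± 0.20 (adjusted p 0.0183), and by 0.80 ± 0.12 over the 3 times (adjusted p 0.00123), with every light array below every dark array at each time. The CT22 call was lost in 5 of 24 alternatives and the average in 1 of 23. NFYB, a subunit of the factor that binds CCAAT boxes, rose by 0.35 ± 0.09 over the 3 times (adjusted p 0.0445), though its other probe set gave 0.0040 and the call was lost in 17 of 23 alternatives. HSF2, a heat shock factor, rose in dark at CT22 by 0.49 ± 0.08 against CT14 and by 0.46 ± 0.08 against CT6 (adjusted p 0.00238 and 0.0148). These calls were lost in 1 and 4 of 24 alternatives. In dark at CT22 against CT14, 4 of 7 pineal and 2 of 5 neuron markers rose. So did 1 of 5 glial and 1 of 5 fibroblast and meninges markers, while 3 of 5 choroid plexus and ependyma markers fell. Against CT6, 1 pineal and 1 neuron marker rose. Summed signals of the pineal markers in dark were 27500 to 28400 at CT22 and 24300 to 24800 at CT14. The part of these cells in the dark CT22 calls was not tested.

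Of 20 tested genes of ubiquitin and substrate delivery, 0 passed at CT6, 1 at CT14 and 1 at CT22, against 0.221%, 1.67% and 3.64% of all probe sets, and both were HERPUD1. It encodes a protein that helps carry misfolded proteins from the endoplasmic reticulum to the proteasome. HERPUD1 read 7.60 and 7.71 in light at CT6 and 7.19 and 7.41 in dark, 7.98 and 7.97 in light at CT14 and 7.21 and 7.40 in dark, and 9.56 and 9.75 in light at CT22 and 7.86 and 7.70 in dark. The CT22 light arrays lay far above all others. HERPUD1 rose by 1.88 ± 0.12 at CT22 (adjusted p 8.34e-07) and by 0.67 ± 0.12 at CT14 (adjusted p 0.00843). At CT6 it was higher in light by 0.35, which did not pass. The CT14 call was lost in 5 of 24 alternatives and the CT22 call in 0. Its 2 other probe sets gave 2.04 and 1.61 at CT22, and both passed. At CT14 they gave 0.82 and 0.37 and did not pass (adjusted p 0.0532 and 0.191). At CT6 they gave 0.84 and 0.36 and did not pass either (adjusted p 0.104 and 0.319). In the dark HERPUD1 also passed as higher at CT22 than at CT14, by 0.48, a call lost in 8 of 24 alternatives. The other probe sets gave 0.52 and 0.16 there and did not pass (adjusted p 0.146 and 0.525). At CT22, 3 of 7 pineal and 2 of 5 glial markers fell in light, while 2 of 5 choroid plexus and ependyma, 2 of 5 fibroblast and meninges and 1 of 5 endothelium markers rose. Summed signals of the pineal markers there were 23700 to 25500 in light and 27500 to 28400 in dark, and the part of these cells in the result was not tested. UBQLN1, a shuttle protein, rose by 0.24 ± 0.06 over the 3 times (adjusted p 0.0363), a call lost in 13 of 23 alternatives. Its 2 other probe sets gave similar changes, 0.24 ± 0.11 and 0.26 ± 0.11, but did not pass (adjusted p 0.319 and 0.244). In the dark VCP, the ATPase that extracts ubiquitylated proteins, read 9.09 and 9.26 at CT14, against 9.57 and 9.48 at CT6. VCP fell by 0.35 ± 0.08 at CT14 against CT6 and rose by 0.49 ± 0.08 at CT22 against CT14 (adjusted p 0.0255 and 0.00195), though its other probe set gave 0.055 and -0.48 and had a standard error of 0.62. The first of these calls for VCP was lost in 10 of 24 alternatives, and the second fell to a change of 0.0095 with probe sets averaged. UBE2D1, a ubiquitin-conjugating enzyme, rose by 0.36 ± 0.09 in dark at CT14 against CT6 (adjusted p 0.0379), a call lost in 9 of 24 alternatives. Median changes of this list were 0.054 at CT6, -0.017 at CT14 and 0.012 at CT22.

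**Figure D5:**
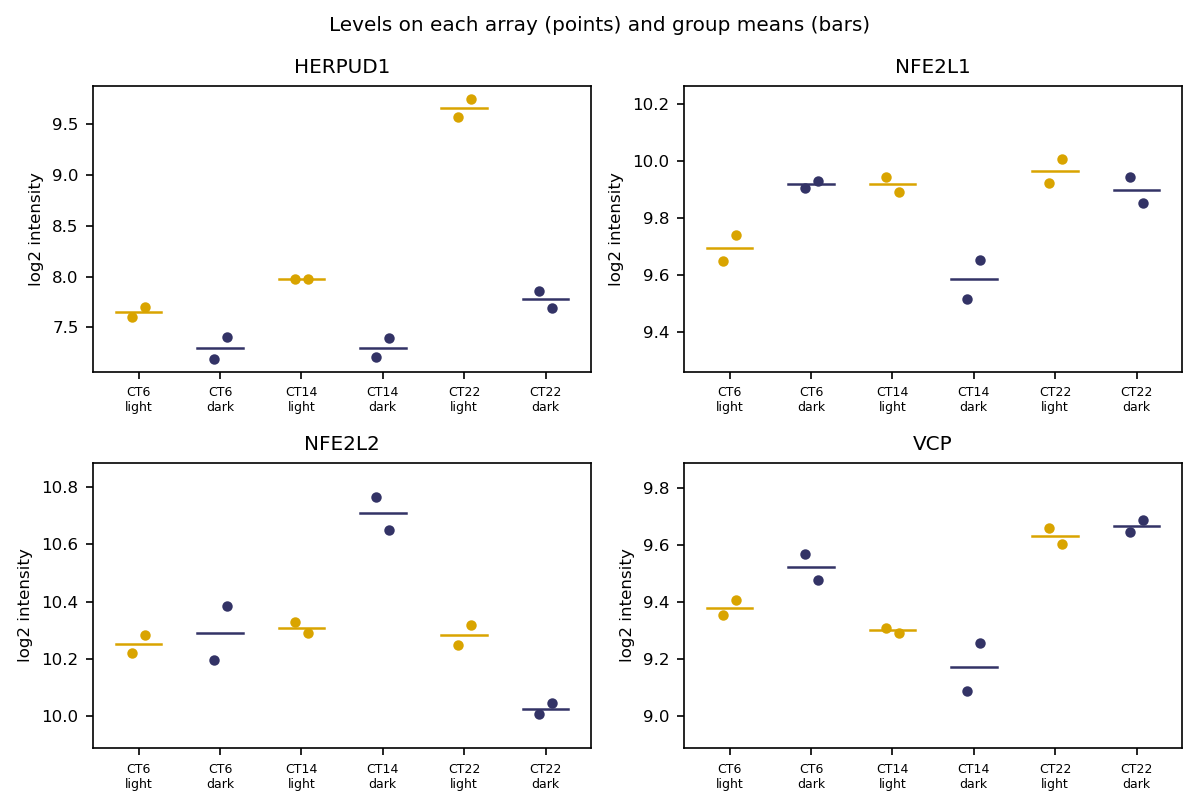
Log2 intensity of HERPUD1, NFE2L1, NFE2L2 and VCP on each array (points) with group means (bars), light left of dark at each time; the vertical axes differ. HERPUD1 is at 9.56 and 9.75 in light at CT22. NFE2L2 is highest in both CT14 dark arrays, and the NFE2L1 arrays of CT14 dark overlap with those of CT6 light.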

How the data were processed

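For each of 12 Affymetrix chicken arrays the authors deposited linear intensities, 1 per probe set. How these intensities were summarised and scaled is not given in the sources used. Per the labels' protocols, 9 micrograms of total RNA from 6 glands were labelled for each array. Groups and replicate numbers came from the sample titles. The deposited array medians ran from 20.1 to 28.9, and the small number of arrays limits the precision.

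Values were taken to log2, quantile normalized with the control probe sets included, and set to at least 1 on the linear scale. The 96 controls were then left out, and only probe sets whose mean exceeded the 40th percentile (log2 3.73) went into tests. Quantile normalization hides a change shared by most probe sets. The fit (limma 3.58.1, R 4.3.3) held a mean for each of the 6 groups, had 6 residual and 7.28 prior degrees of freedom and used a variance trend, and p-values were adjusted over all 23063 tests at a threshold of 0.05. The fit was tested on simulated data. Genes were named through the platform annotation, and all 36 symbols matched the RefSeq gene table. No coordinates or sequences were used here.

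Named are members past the threshold, members below the filter, and the genes past the threshold of the lists of partners, regulators and delivery genes. Most of the 3 highest and 3 lowest members per light comparison are also named, and some of those per dark comparison. Members and lists, markers included, were chosen with earlier results of these data known. Same-numbered arrays did not deviate together (15 pairs, correlation -0.028 to 0.028, 0 pairs over 0.1), so the replicate numbers were not taken as pairs. Alternatives covered scaling, filter, added constant, variance model, replicate block, probe set choice, actin ratio, the groups fitted and each array left out.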

Additional observations from a re-analysis of the deposited data

Results flagged for a closer look

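With the chosen probe sets, light effects on 2 genes around the proteasome differed between times by a direct test in limma. The light effect on NFE2L2 was 0.66 ± 0.11 higher at CT22 than at CT14 on the log2 scale (adjusted p 0.00876). The light effect on HERPUD1 was 1.2 ± 0.16 higher at CT22 than at CT14 (adjusted p 0.00356) and 1.52 ± 0.16 higher at CT22 than at CT6 (adjusted p 0.00118). The first and second of these comparisons use the CT14 dark arrays, whose actin ratios were 4.67 and 3.95. These calls were lost in 3, 2 and 1 of 24 alternatives.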

How the results depend on the processing

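Counts of proteasome genes past the threshold depended mainly on array scaling. At CT6, 4 genes passed with arrays centred on the median, and 1 (PSMD12) with a filter at the 60th percentile or with probe sets averaged. Averaged over times, 1 (PSMD6) passed with arrays centred, and 0 to 1 with single arrays left out, PSMG2 without the first CT6 light array and PSMD14 without the second CT14 dark array. For dark CT14 against CT6 there were 3 with arrays centred (PSMA1, PSMC2 and PSMD12), and 0 with values as deposited, without the filter, without the variance trend, with the actin ratio or with the 2 groups alone. With single arrays left out there were 0 to 1, and 0 without either CT14 dark or either CT6 dark array. For dark CT22 against CT14, 12 passed as deposited, a scale on which the median of all probe sets was 0.37 higher, and 1 (PSMG3) with the actin ratio. For dark CT22 against CT6 there were 3 as deposited (PSMA7, PSMC2 and PSMD12) and 1 (PSMD12) with arrays centred. With the replicate block PSMC2 kept its call (adjusted p 0.0272), and the block moved no count of proteasome genes. The call for PSMC2 was lost in 9 of 24 alternatives, with adjusted p from 0.00582 to 0.177. NFE2L1 at CT14 turned to -0.0938 with probe sets averaged and lost its call in 18 of 24. The cause of these shifts was not tested. Light against dark at CT14 and at CT22 gave 0 members under all 24 alternatives. Signal near background limits PSMB5 and PSMC3IP.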
